A study of Homo sapiens with 7 samples.

Results

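The regions described here are the H3K4me3 regions inside 5 windows of chromosome 19 (hg19) known for their clusters of zinc finger genes. A region was a member when its start lay in a window. From the first start to the last end of its members, window 1 ran from 19842473 to 24218115, window 2 from 36503980 to 38399636, window 3 from 44302003 to 44861260, window 4 from 52302539 to 53936438 and window 5 from 57683870 to 59088280. The windows themselves measured 4.5, 1.9, 0.7, 1.7 and 1.5 Mb. This gave 160 of the 30840 regions of the table, with 21, 38, 17, 33 and 51 in windows 1 to 5, and left 1571 other regions on chromosome 19. The rule uses position alone, but the windows were picked with earlier results of these data known.

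HCT116 is a human colon cancer line, and every library came from HCT116 cells that are KDM5A-/-, so the control cells lack KDM5A too. They were transfected with an empty vector (EV), with KDM5A wildtype or with a KDM5A mutant, and were harvested 24 h later. Trimethylation of lysine 4 on histone H3 was then mapped by chromatin immunoprecipitation and sequencing, with 1 library per transfection. No difference between libraries can thus be set against a spread of replicates, no p-value is given, and all intervals are 95% intervals of the reads that cover counting error only. The labels do not say what the mutant changes in the protein, whether the knockout line is 1 clone or what share of cells took up the plasmids. Values are RPM, reads per 1000000 reads of the library. The depth was worked out from the RPM value of 1 read, so its last digits are not exact. It came to 10713021 reads for EV, 10852411 for wild-type KDM5A and 9906508 for the mutant. A count of 0 reads allows up to 0.280, 0.276 and 0.303 RPM. Input and IgG material was not analysed here. The gene table at hand is on another build than the regions, so regions carry no gene names and markers of the cell line were not checked.

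H3K4me3 marks the start sites of active genes, and promoters rich in CpG carry it most. KDM5A, also called JARID1A or RBP2, is a demethylase that removes this mark, and its ARID domain is known to bind the DNA motif CCGCCC. Zinc finger genes of the KRAB type form the largest family of human transcription factors, and chromosome 19 holds their main clusters, which arose by repeated tandem duplication. Their proteins bind DNA through arrays of zinc fingers and recruit the corepressor TRIM28, many of them to silence retrotransposons. The clusters also hold genes of other kinds, and zinc finger genes lie elsewhere on chromosome 19 too, so that the comparison below is one of places, not of gene classes.

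Sequences of the regions themselves were not at hand in hg19. RefSeq promoters (GRCh38.p14, 250 bases before to 50 after each gene start) were therefore used only to show what promoters of this gene family look like, with no tie to a region. The table held 229 protein-coding genes of chromosome 19 with a ZNF, ZSCAN, ZFP, ZIM, ZIK or ZKSCAN symbol. Their promoters had a median of 20 CpG dinucleotides in 300 bases, against 21 for the 956 other chromosome 19 genes and 22 for all 15842 protein-coding genes. The spread was narrower: the quartiles were 14 and 26 CpG for the zinc finger genes, and 8 and 32 for all genes. CCGCCC on either strand was found in 66.8% of the zinc finger promoters, in 66.1% of the other chromosome 19 promoters and in 58.5% of all promoters. Its reverse complement GGGCGG is the GC box known to be bound by SP1, so the letters belong to both motifs. A pair is printed as examples, both below the zinc finger promoters' median of 20 CpG, with CCGCCC or GGGCGG in capitals. ZNF91 is known as a repressor of SVA retrotransposons and ZNF274 as a protein that binds the 3′ ends of zinc finger genes. ZNF91 (minus strand) has 11 CpG and 1 motif, and ZNF274 (plus strand) has 16 CpG and 5 motifs.
ZNF91: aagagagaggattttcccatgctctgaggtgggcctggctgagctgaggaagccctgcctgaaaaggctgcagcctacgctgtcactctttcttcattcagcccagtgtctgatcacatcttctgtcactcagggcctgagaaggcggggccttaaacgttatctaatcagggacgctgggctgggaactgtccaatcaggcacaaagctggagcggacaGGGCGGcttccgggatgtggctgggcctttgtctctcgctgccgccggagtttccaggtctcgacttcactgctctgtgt
ZNF274: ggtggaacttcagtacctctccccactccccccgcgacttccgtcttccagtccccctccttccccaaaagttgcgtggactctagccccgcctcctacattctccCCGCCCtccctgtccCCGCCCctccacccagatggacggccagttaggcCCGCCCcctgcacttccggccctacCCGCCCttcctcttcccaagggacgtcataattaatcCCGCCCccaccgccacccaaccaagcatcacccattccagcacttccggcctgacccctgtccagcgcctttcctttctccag

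The majority of the members were strong regions, and these were narrower than strong regions elsewhere. Strong regions, with a mean of 20 RPM or more over the 3 libraries, numbered 91 of the 160 members (56.9%), against 683 of 1571 (43.5%) elsewhere on chromosome 19 and 10887 of 30840 (35.3%) in the table. Middle regions, from 5 to 20 RPM, numbered 23 and weak regions, under 5 RPM, 46 (28.8%, against 38.0% elsewhere on chromosome 19). The strong members were narrower than other strong regions, with a median width of 2121 bp (quartiles 1792 and 2498) against 2759 bp (2252 and 3563) for strong regions elsewhere on chromosome 19. They also had less total signal, with a median of 32.3 against 47.1 RPM. Per kb of width the levels were close, with medians of 16.4 RPM per kb in the windows and 16.9 elsewhere on chromosome 19. Wide domains over 4000 bp were few: 4 members (2.5%), all in window 5, against 119 (7.57%) elsewhere on chromosome 19. Strong regions were no majority in window 1 (47.6%) and window 2 (36.8%), and made up 52.9%, 66.7% and 70.6% of windows 3 to 5. In 5 further stretches of chromosome 19 known for zinc finger genes, outside the windows, 41 of 74 regions were strong (55.4%). That share was close to the windows' own. No test was made of these differences, since regions are not replicates.

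The windows were sparsely marked for chromosome 19. Their 10.3 Mb held 15.5 regions per Mb and 8.83 strong regions per Mb. The rest of the chromosome, without its largest gap between regions, held 35.3 and 15.4 per Mb. The density of strong regions was thus 0.575 times that of the rest. Neighbouring regions lay a median of 31.5 kb apart in the windows and 13.5 kb apart elsewhere. The windows differed widely among themselves. Window 1, the longest and the sparsest, took up 4.5 of the 10.3 Mb and so weighed most in the pooled densities. It had 2.22 strong regions per Mb and one stretch of 1322 kb with no region at all. Window 5, at the end of the long arm, had 24.0 strong regions per Mb, more than the 15.4 of the rest of the chromosome. Window 3 had 12.9 and window 4 had 12.9, and window 2 had 7.37 beside the highest density of weak regions, 9.47 per Mb. Weak regions made up 18 of the 38 members in window 2, 6 of 21 in window 1, 3 of 17 in window 3, 8 of 33 in window 4 and 11 of 51 in window 5.

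**Figure D1:**
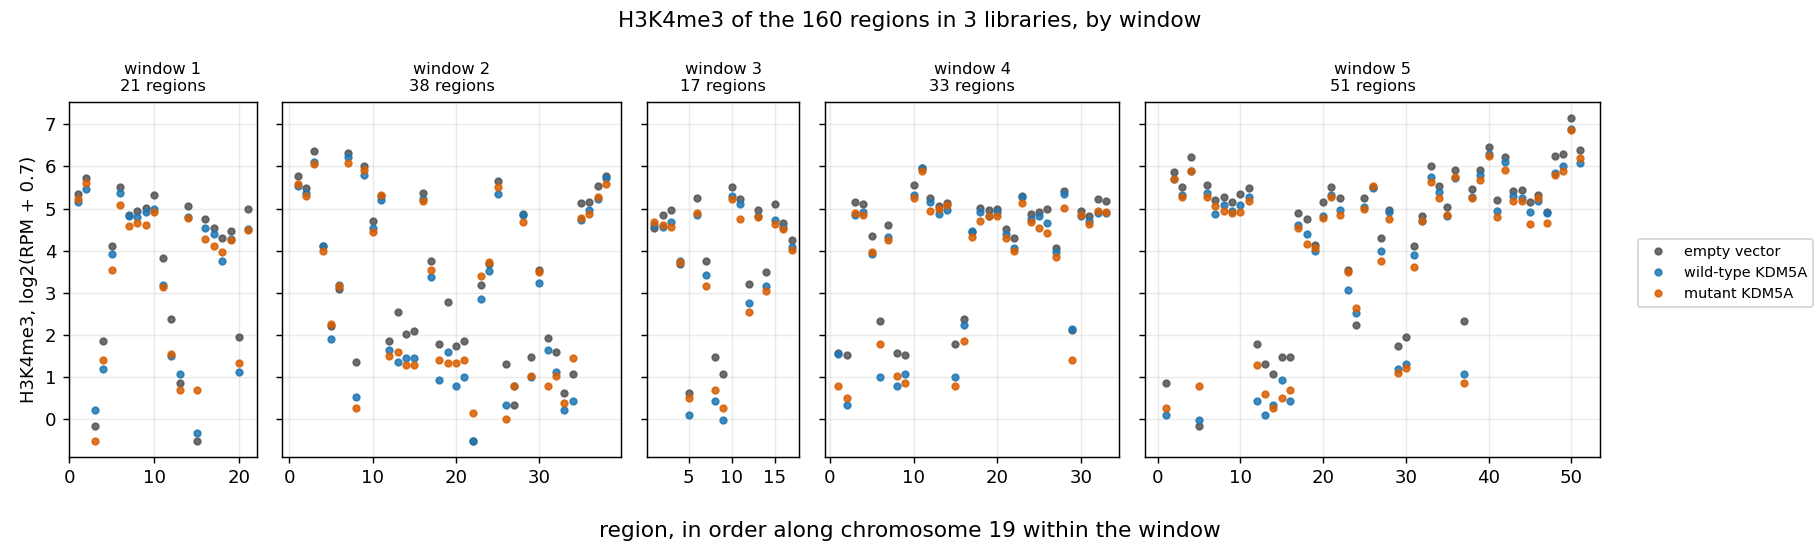
H3K4me3 of each of the 160 regions, as log2(RPM + 0.7), in order along the chromosome within each window, with 1 point per library. The 91 strong regions form a band at the top in all windows, and most of the 46 weak ones lie well below it with the empty vector (grey) above both KDM5A libraries.

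The strongest members were at the end of window 5. The region at 59064522 to 59072109, 7588 bp wide and the widest member, measured 141.6, 117 and 116 RPM for EV, wild-type and mutant KDM5A. The second in level, at 58896276 to 58900766, measured 88.1, 77.7 and 75.4 RPM for the same libraries, and the one at 59083356 to 59088280 measured 83.4, 66.7 and 72.6 RPM. In all 3 of these EV was the highest library.

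In window 2 the top regions stood together near its start. At 36604443 to 36607632 the EV, wild-type and mutant libraries gave 81.3, 68.6 and 65.7 RPM. That at 36629781 to 36633110 had 79.8, 74.3 and 67.0 RPM, and that at 36704401 to 36707860, the widest of the window, had 63.7, 54.6 and 59.9 RPM. In window 4 the highest and widest member, at 52691490 to 52695114, was nearly level, at 61.9, 61.6 and 58.2 RPM for EV, wild-type and mutant KDM5A (wild-type to EV 0.995-fold, 0.892 to 1.11).

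The other leading members of window 4 were below EV with both forms. The region at 52641258 to 52643836 had 46.5, 39.3 and 37.1 RPM for EV, wild-type and mutant KDM5A. That at 53605266 to 53607554 had 42.0, 39.8 and 31.8 RPM. Windows 1 and 3 had lower tops. In window 1 the region at 19885582 to 19888628 had 52.27, 43.5 and 48.4 RPM, that at 21202933 to 21206138 had 44.99, 40.5 and 33.1 RPM and that at 19842473 to 19844494 had 39.95, 35.2 and 36.9 RPM. In window 3 the region at 44597896 to 44600006 had 44.8, 38.42 and 36.8 RPM, that at 44616713 to 44618483 had 36.9, 33.7 and 26.2 RPM and that at 44506147 to 44508267 had 37.3, 28.1 and 28.9 RPM. The widest of window 3, at 44808137 to 44810317, was level by comparison, with 24.5, 22.9 and 22.2 RPM.

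In the ratios to EV, the members differed most from the rest of the chromosome at the weak level. The 46 weak members held 113, 63.3 and 66.3 RPM for EV, wild-type and mutant KDM5A, from 1206, 687 and 657 reads. The summed signal was 1.78-fold lower with wild-type KDM5A than with EV (1.62 to 1.96) and 1.70-fold lower with the mutant (1.54 to 1.87). The 597 weak regions elsewhere on chromosome 19 held 1181, 1195 and 1147 RPM, a change of 1.17% with wild-type KDM5A (−1.28% to 3.69%) and of −2.84% with the mutant (−5.27% to −0.335%). Over all 15714 weak regions of the table the changes were −1.47% and −3.89%. Both comparisons share the 1 EV library, so a deviation of that library at these regions would appear in both.

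Per region, log2 ratios were taken after adding 0.7 RPM to each value. Wild-type KDM5A to EV gave a median of −0.65 in the weak members (quartiles −0.93 and −0.29). It was 0.040 in weak regions elsewhere on chromosome 19 and 0 in those of the whole table. For the mutant the medians were −0.61 in the weak members, 0.022 elsewhere on chromosome 19 and 0 in the table. At least 1.5-fold lower with wild-type KDM5A were 25 of the 46 weak members (54.3%), while the same threshold was passed by 11.9% of weak regions in the table and 11.2% elsewhere on chromosome 19. At least 1.5-fold higher were 0 weak members, against 11.9% in the table. With the mutant 25 weak members were lower (54.3%, against 13.9% in the table) and 3 were higher (against 1999 of the 15714 in the table). Those 3 had 0, 0 and 2 reads with EV and 4, 9 and 10 with the mutant. Wild-type KDM5A was below EV in 38 of the 46 and the mutant in 39 of the 46. Taken chromosome by chromosome (23, without Y), weak regions had medians from −0.16 to 0.094 for wild-type KDM5A and from −0.093 to 0.075 for the mutant.

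**Figure D2:**
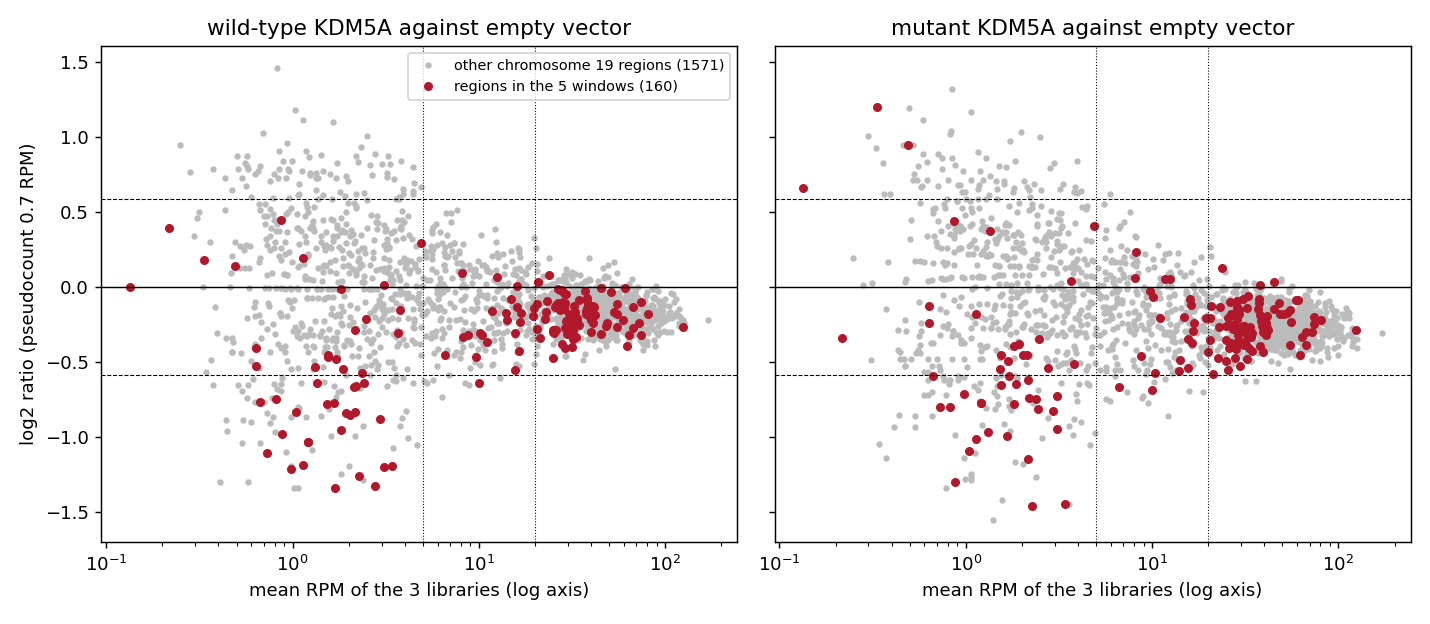
Log2 ratio to the empty vector against the mean RPM of the 3 libraries (log axis) for the regions of chromosome 19, with wild-type KDM5A on the left and the mutant on the right. Dotted lines mark 5 and 20 RPM and dashed lines 1.5-fold. The windows' regions (red) at under 5 RPM lie mostly below 0, with medians of −0.65 and −0.61, where the other chromosome 19 regions (grey) spread to both sides.

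All 5 windows had lower summed signal at their weak members with both forms. The change with wild-type KDM5A was −40.1% in window 1 (−55.5% to −19.9%), −45.5% in window 2 (−53.1% to −36.8%) and −70.0% in window 3 (−84.7% to −44.4%). It was −35.6% in window 4 (−47.3% to −21.4%) and −45.6% in window 5 (−55.7% to −33.3%). With the mutant the changes in windows 1 to 5 were −34.4%, −40.9%, −50.6%, −46.8% and −37.6%. Window 3 has 3 weak members, and its value rests on 46, 14 and 21 reads. Leaving out each window in turn kept the median log2 ratio of the weak members between −0.71 and −0.64 for wild-type KDM5A and between −0.65 and −0.55 for the mutant.

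Single weak members, picked for this text after their values were seen, show the size of the reads involved. The region at 37340845 to 37342356 in window 2 measured 6.16, 2.30 and 1.82 RPM for EV, wild-type and mutant KDM5A, that is 66, 25 and 18 reads (2.67-fold lower with wild-type KDM5A, 1.66 to 4.42). In the same window the region at 37063854 to 37065531 had 5.13, 1.84 and 2.32 RPM, or 55, 20 and 23 reads. In window 5 the region at 58858449 to 58859735 had 4.29, 1.38 and 1.11 RPM (3.11-fold lower with wild-type KDM5A, 1.70 to 5.99). EV was far above both KDM5A libraries in each of these. The region at 52510744 to 52512085 in window 4 measured 4.29, 1.29 and 2.73 RPM for the same libraries, and that at 21688357 to 21689165 in window 1 had 4.48, 2.12 and 2.22 RPM. Against the pattern, the region at 58314819 to 58315745 in window 5 had 4.01, 5.07 and 5.55 RPM.

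**Figure D3:**
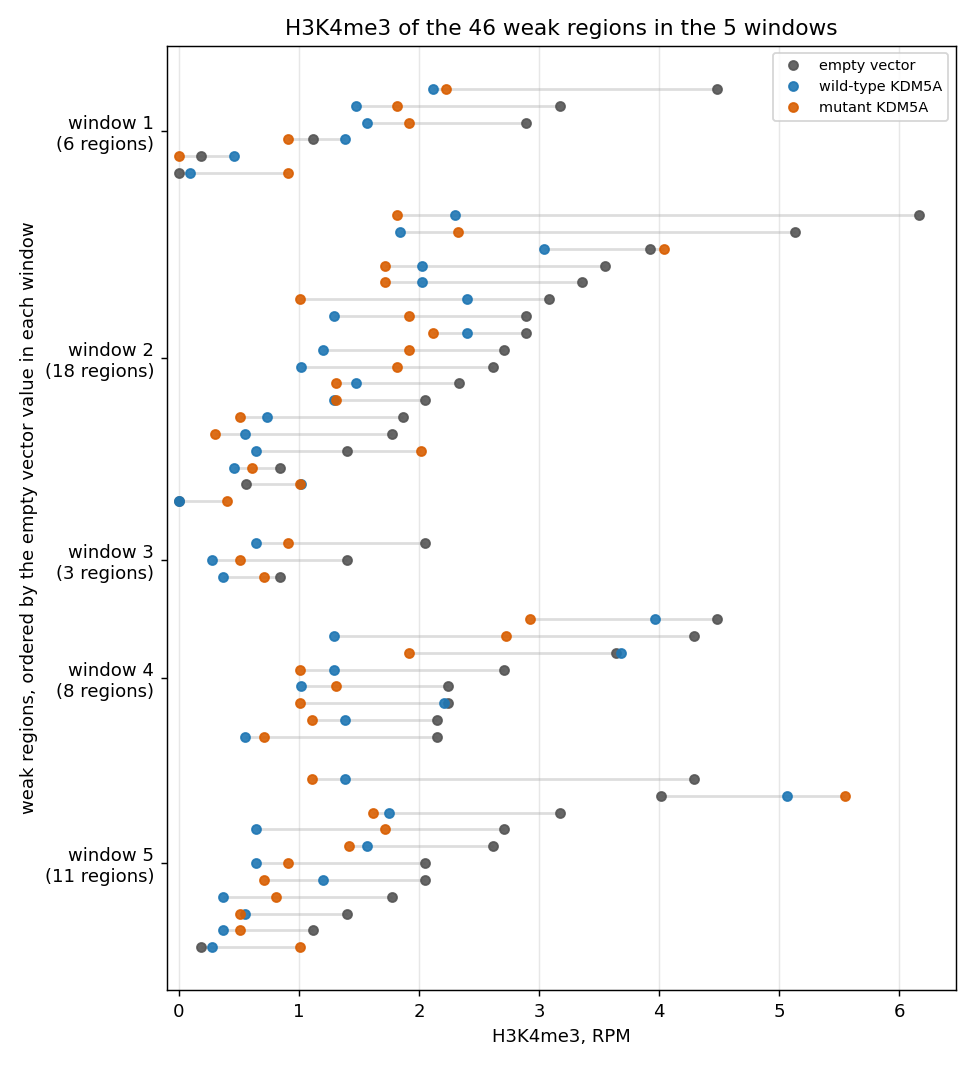
H3K4me3 in RPM of each of the 46 weak regions in the 5 windows, 1 row per region, ordered within a window by the empty vector value, with 1 point per library. The empty vector point (grey) lies to the right of the wild-type point in 38 rows and of the mutant point in 39.

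The weak members were not the narrowest or the most crowded regions. Their median width was 763 bp against 624 bp for weak regions elsewhere on chromosome 19, and they lay a median of 46.04 kb from the nearest strong region, against 16.6 kb. Among the 15 weak members over 1000 bp wide wild-type KDM5A gave a median of −0.83 against EV, and 10 were at least 1.5-fold lower (66.7%, against 9.52% of 126 such regions elsewhere on chromosome 19 and 12.5% of 3087 in the table). Among the 16 of up to 500 bp it was −0.53 with 7 lower (43.8%, against 14.7% and 13.2%), and among the 15 between these widths −0.64 with 8 lower (53.3%, against 9.09% and 10.3%). The mutant gave medians of −0.59, −0.47 and −0.65 in the same order of classes. More than 20 kb from a strong region, 18 of 34 weak members were lower with wild-type KDM5A (52.9%, against 11.7% of 281 elsewhere on chromosome 19), and within 20 kb 7 of 12 (58.3%, against 10.8% of 316). With wild-type KDM5A the share of the weak members thus lay above that of other weak regions in each of these classes.

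**Figure D4:**
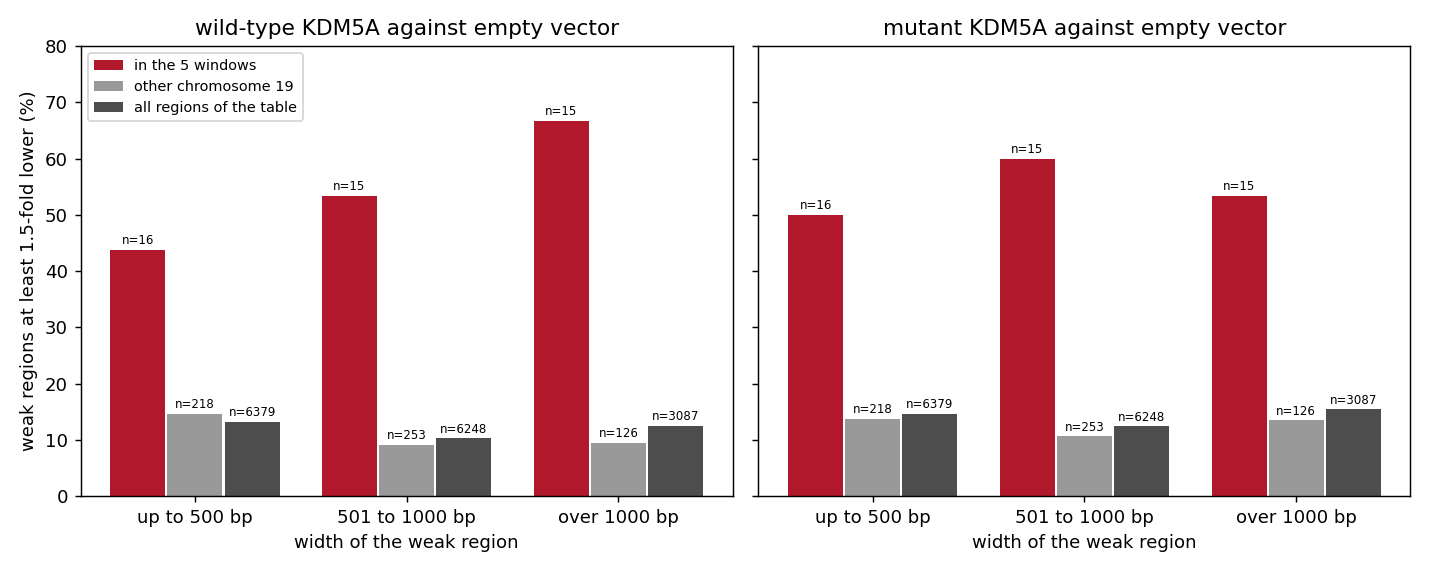
Share of weak regions (under 5 RPM) that were at least 1.5-fold lower than with the empty vector, in %, by width of the region, for wild-type (left) and mutant KDM5A (right); n is the number of regions in the bar. The bars of the 5 windows (red) run from 43.8% to 66.7% and those of the comparison sets from 9.09% to 15.4%.

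Other definitions of a weak member, chosen after the values were seen, moved the medians little, while the pseudocount moved both the medians and the count. Defined by the EV library alone (under 5 RPM, 44 members) the medians were −0.64 and −0.59 for wild-type and mutant KDM5A, and defined by the mean of the KDM5A libraries, without EV (45 members), −0.66 and −0.62. With 30 reads or more over the 3 libraries (35 members), 21 were lower with wild-type KDM5A (60%, against 8.97% elsewhere on chromosome 19). The medians were −0.94 and −0.88 with a pseudocount of 0.07 RPM, and −0.29 and −0.29 with 3.5 RPM. The latter left 4 and 2 weak members past 1.5-fold for wild-type and mutant KDM5A (8.70% and 4.35%, against 1.01% and 1.34% elsewhere on chromosome 19). Scaling to a median ratio of 1 took that median over the regions at or above the table's median mean RPM. It raised the median log2 ratio of all regions by 0.13 for wild-type and 0.21 for mutant KDM5A. Under it 21 and 16 weak members were lower (45.7% and 34.8%, against 9.05% and 7.71% elsewhere on chromosome 19). The 74 regions in 5 further stretches of chromosome 19 that are also known for zinc finger genes, outside the windows, held 24 weak ones, with medians of −0.15 and −0.28. Of these 24, 4 and 6 were at least 1.5-fold lower (16.7% and 25.0%, against 11.9% and 13.9% in the table). Their summed signal changed by −13.4% with wild-type KDM5A (−22.9% to −2.65%) and by −19.9% with the mutant (−29.1% to −9.48%), in the same direction as in the windows and by less.

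Middle members shifted in the same direction by less. The 23 regions had medians of 15.9, 12.72 and 12.5 RPM with EV, wild-type and mutant KDM5A. Their summed signal changed by −16.2% with wild-type KDM5A (−20.1% to −12.0%) and by −18.0% with the mutant (−22.0% to −13.8%), against −6.31% and −12.71% for middle regions elsewhere on chromosome 19. The median log2 ratios were −0.23 and −0.24, against −0.079 and −0.17. At least 1.5-fold lower were 1 with wild-type KDM5A (4.35%, against 3.3% of middle regions in the table) and 2 with the mutant (8.70%, against 6.63%), shares near those of the table. None was higher with either form (against 0.991% and 0.849%), and none passed 1.5-fold between mutant and wild-type KDM5A (against 1.89% lower and 0.425% higher).

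Strong members were lower with KDM5A to nearly the same extent as strong regions elsewhere. Their median log2 ratio to EV was −0.19 for wild-type KDM5A, against −0.16 elsewhere on chromosome 19 and −0.15 in the table, and −0.26 for the mutant, against −0.25 and −0.24. Wild-type KDM5A was below EV at 89 of the 91 and the mutant at 88. The sums changed by −13.0% (−14.2% to −11.8%) and −16.6% (−17.8% to −15.4%), against −11.0% and −16.2% elsewhere on chromosome 19. None of the 91 passed 1.5-fold in either direction in either comparison, where 0.0459% and 0.432% of all strong regions were lower and 0.0459% higher in each. With scaling to a median ratio of 1, the medians of the strong members were −0.050 and −0.032, so that most of their shift went with that of the table as a whole. All regions of the table together held 67.0% of the reads with EV, 60.7% with wild-type and 56.9% with mutant KDM5A. Their summed RPM changed by −9.46% with wild-type KDM5A and by −15.1% with the mutant. Whether this came from KDM5A or from the enrichment of the single libraries was not tested.

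Among members with a mean of 5 RPM or more, the lowest ratio to EV for both forms was at 21579635 to 21580695 in window 1, at 13.4, 8.39 and 8.08 RPM for EV, wild-type and mutant KDM5A (1.60-fold lower, 1.22 to 2.11, and 1.66-fold lower, 1.26 to 2.22). Next lowest for wild-type KDM5A was 23577099 to 23578884, also in window 1, with 19.04, 12.72 and 14.8 RPM. It was followed by 24215645 to 24218115, the last member of that window, with 30.8, 22.0 and 21.7 RPM, and by 58280822 to 58282106 in window 5, with 10.8, 7.65 and 10.6 RPM. Thus 3 of the 4 lowest ratios with wild-type KDM5A lay in window 1, which held 10 of the 91 strong and 5 of the 23 middle members.

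For the mutant the next lowest were in windows 3 and 5. The region at 44645082 to 44646816 measured 8.59, 6.08 and 5.15 RPM for EV, wild-type and mutant KDM5A. That at 58110760 to 58112168 had 26.1, 20.5 and 17.3 RPM, and that at 44529008 to 44530350 had 12.69, 10.04 and 8.28 RPM. At the other end, the 4 highest ratios of wild-type KDM5A to EV had intervals that include 1. They were 36626943 to 36628306, with 7.84, 8.39 and 8.18 RPM, 44302003 to 44304040, the first member of window 3, with 22.6, 23.9 and 24.7 RPM, 44455049 to 44456446, with 12.1, 12.72 and 12.6 RPM, and 53140561 to 53142087, with 21.1, 21.6 and 19.3 RPM. The first 3 of them were also among the 4 highest for the mutant. These regions were picked for their ratios, and the intervals do not allow for that choice.

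Summed over all their members, the windows changed by −11.2% in window 4 (−13.9% to −8.48%) to −15.9% in window 1 (−19.3% to −12.3%) with wild-type KDM5A. Windows 2, 3 and 5 gave −14.1%, −15.0% and −14.6%, and the rest of chromosome 19 gave −10.3% (−10.7% to −9.96%). The counting intervals of windows 1, 2, 3 and 5 lie below that of the rest of the chromosome, and that of window 4 overlaps it. These sums mix the levels. At strong members alone the intervals were −18.0% to −9.98%, −15.1% to −9.19%, −18.6% to −9.68% and −12.9% to −7.12% in windows 1 to 4. All of these overlap that of strong regions elsewhere on chromosome 19 (−11.4% to −10.6%). Only that of window 5 (−15.9% to −12.3%) lies below it. With the mutant the windows gave −21.2% (−24.5% to −17.7%), −14.0% (−16.7% to −11.2%), −19.2% (−23.1% to −15.2%), −16.2% (−18.8% to −13.5%) and −18.0% (−19.7% to −16.2%) for windows 1 to 5, against −15.5% (−15.9% to −15.2%) for the rest. Windows 1 and 2 were thus furthest apart with the mutant, a pair picked after the values were seen, and their intervals over all levels do not overlap. By level, their intervals overlapped at strong members (−23.3% to −15.5% and −16.3% to −10.3%). They also overlapped at weak members (−51.3% to −12.3% and −49.1% to −31.4%). At the 5 and 6 middle members they did not (−32.9% to −18.2% and −11.8% to 9.12%). Scaled to equal sums over all regions, windows 1 to 5 changed by −7.09%, −5.15%, −6.07%, −1.96% and −5.71% with wild-type KDM5A, and by −7.21%, 1.27%, −4.89%, −1.36% and −3.42% with the mutant. The intervals of window 4 in both (−4.91% to 1.08% and −4.45% to 1.82%) and of window 2 with the mutant (−1.94% to 4.57%) then included 0. At least 1.5-fold lower over all levels were 26 members with wild-type KDM5A (16.2%, against 6.53% of the table) and 27 with the mutant (16.9%, against 8.15%), of which 25 and 25 were weak. Higher were 0 (against 6.23%) and 3 (1.88%, against 6.61%).

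**Figure D5:**
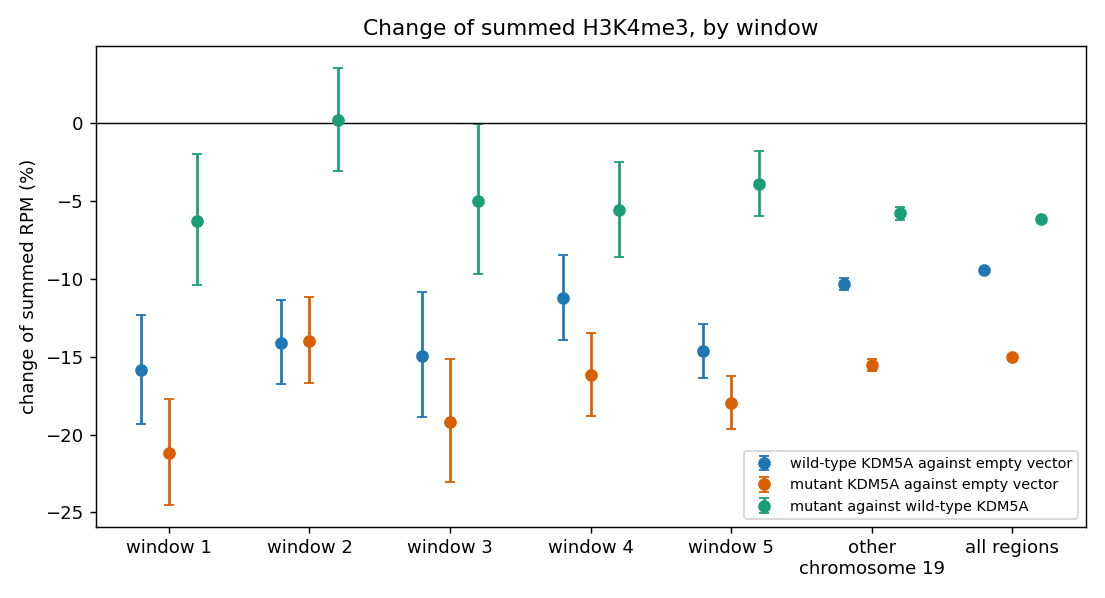
Change of the summed RPM of all regions of a window, of the other chromosome 19 regions and of the table, in %, for the 3 comparisons. Bars are exact conditional 95% intervals of the reads (counting error only). Mutant against wild-type KDM5A (green) is 0.175% in window 2 and −3.89% to −6.29% in the other windows, of which windows 3, 4 and 5 turn to 0.610% to 2.44% when scaled to equal sums.

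Between mutant and wild-type KDM5A, the direction of the difference rests on the scaling. Over all members the mutant library had 3.82% less signal than the wild-type library (−5.19% to −2.44%), against −5.80% elsewhere on chromosome 19 (−6.22% to −5.38%). Strong members had a median log2 ratio of −0.067, against −0.086 elsewhere on chromosome 19, and 66 of the 91 were below 0. Scaled to a median ratio of 1 this median was 0.023, so its direction rests on the scaling by library totals. By window the sums changed by −6.29% (−10.4% to −2.00%), 0.175% (−3.10% to 3.56%), −5.00% (−9.68% to −0.0758%), −5.60% (−8.63% to −2.48%) and −3.89% (−5.96% to −1.78%) from window 1 to 5. Scaled to equal sums over all regions, they changed by −0.121% (−4.50% to 4.45%), 6.77% (3.28% to 10.4%), 1.26% (−3.73% to 6.499%), 0.610% (−2.61% to 3.94%) and 2.44% (0.231% to 4.69%). Under that scaling windows 2 to 5 were thus not lower with the mutant. At the weak members the sum was 4.77% higher with the mutant (−6.01% to 16.8%), an interval that includes 0, with 4 at least 1.5-fold lower (8.70%, against 10.2% in the table) and 6 higher (13.0%, against 10.1%). Among all members 4 were lower (2.5%, against 5.45%) and 6 higher (3.75%, against 5.19%).

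Between the KDM5A forms, 2 of the 4 lowest ratios at 5 RPM or more lay in window 1 (10 of the 91 strong and 5 of the 23 middle members). The region at 21105658 to 21107006 measured 16.4, 14.5 and 10.9 RPM for EV, wild-type and mutant KDM5A (mutant 1.33-fold below wild-type, 1.03 to 1.71). That at 21511066 to 21512577 had 31.6, 29.4 and 23.5 RPM, and the other two were the regions at 44616713 (1.28-fold lower, 1.09 to 1.51) and 53605266 (1.25-fold lower, 1.08 to 1.45) given above. Of the 4 highest, 3 were middle regions of window 2, which held 14 of the 91 strong and 6 of the 23 middle members. The region at 37663118 to 37663848 measured 8.31, 6.45 and 9.89 RPM (mutant 1.53-fold above wild-type, 1.12 to 2.12). Those at 37700715 to 37702128, with 12.0, 10.7 and 12.5 RPM, and 37861399 to 37862749, with 11.01, 8.75 and 10.5 RPM, had intervals that include 1, and the fourth was the region at 58280822 in window 5 (1.39-fold higher, 1.03 to 1.87).

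Some of the windows' borders cut through marked chromosome, others lay in stretches without regions, and the nearest regions outside differed in level. The last region before window 1, at 19778987 to 19781410, measured 50.2, 46.4 and 40.9 RPM for EV, wild-type and mutant KDM5A, beside the first member at 39.95, 35.2 and 36.9 RPM. The first region past window 3, at 45003118 to 45005379, measured 49.3, 46.3 and 43.1 RPM. By contrast, the region before window 3, at 44287911 to 44290124, was low with EV, at 4.39, 5.44 and 6.76 RPM, beside a first member of 22.6, 23.9 and 24.7 RPM. The region past window 4, at 54362473 to 54362666, measured 0.653, 0.369 and 0.303 RPM, and window 5 held the last region of the chromosome arm.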

How the data were processed

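The authors' deposited table gives RPM per region for the 3 H3K4me3 libraries on hg19. Per the submitters' processing notes, Bowtie2 2.5.4 and deepTools 3.5.6 were used with HOMER, MACS2 and MACS. How regions were called and reads counted is not given in the sources used here, and the EV column is headed H3K4me4, read as a slip for H3K4me3. In each library every value equalled a whole number of steps (0.0933, 0.0921 and 0.101 RPM for EV, wild-type and mutant) within 0.02 reads, so reads were recovered by division and used for intervals only: exact conditional (Clopper-Pearson) 95% intervals of ratios. PCR copies are not independent molecules.

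Log2 ratios used a pseudocount of 0.7 RPM, which understates changes of weak regions; single ratios and sums used none. With 1 library per group no test was possible. Named regions (32) are the 3 highest by mean RPM and the widest per window, and the 4 lowest and 4 highest ratios per comparison at 5 RPM or more. Starts are 1-based. Members, classes and alternatives were chosen with earlier results of these data known; the weak class was singled out after its values were seen. The procedure was tested on simulated reads that carried counting error alone, so that test cannot speak to variation between replicate libraries. Python 3.11.15, numpy 2.4.6, pandas 2.3.3 and scipy 1.17.1 were used.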

Additional observations from a re-analysis of the deposited data

How the results depend on the processing

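Of the 96 values under settings listed at the start, 68 stayed within counting error or, for counts, within 1.5 times, as did 113 of the 129 values under settings added after the data were seen, which cover the weak members. Scaling to a median ratio of 1 or to equal sums moved the median of strong members from −0.19 to −0.050 and −0.048 (wild-type to EV), from −0.26 to −0.032 and −0.030 (mutant to EV), and turned −0.067 to 0.023 and 0.023 (mutant to wild-type). It left 16 members lower with the mutant, not 27, in either scaling, and moved the weak members' median for the mutant to −0.47 in both. Members at least 1.5-fold lower with wild-type KDM5A numbered 26, but 4 with a pseudocount of 3.5 RPM, 10 at 2-fold and 1 among regions no lower than the table's median RPM. For the mutant the 27 became 2, 6 and 2. Its 3 higher members became 0, 1 and 0. With a pseudocount of 0.07 RPM 3 members were higher with wild-type KDM5A, not 0. Mutant to wild-type, 4 lower became 0 under each of those 3 settings, and 6 higher became 12 with 0.07 RPM, 0 with 3.5 RPM, 2 at 2-fold and 0 among regions above the median. Pseudocounts of 0.07 and 3.5 RPM moved the weak members' median to −0.94 and −0.29 for wild-type and −0.88 and −0.29 for mutant KDM5A, and the difference from weak regions elsewhere on chromosome 19 from −0.69 to −0.99 and −0.31 and from −0.63 to −0.91 and −0.30. The cause was not tested, beyond the alternatives' construction. The members' median width exceeded that elsewhere on chromosome 19 by 30.5 bp, but was below it by a difference of −431 bp among regions no lower than that median and of −31.5 bp for members at least 100 kb inside a window. The median mean RPM was 12.6 higher, but among regions at or above the table's median the difference was −7.12. No paired analysis was possible because each group has 1 library. Depth limits the weak members, whose median was 24.5 reads with EV, 14 with wild-type and 12 with mutant KDM5A.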
